A study of Mus musculus with 19 samples.

Results

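The genes described here are 34 long brain mRNAs known from other work as ligands of FMRP, the RNA-binding protein encoded by Fmr1. They were taken by symbol, and the rule used no value measured in these libraries. The members were still chosen with earlier results of these data known. All 34 were among the 24537 genes of the deposited table, and all 34 were among the 15049 genes with a mean of at least 1 TPM (a read count scaled by transcript length and library total). The libraries hold nuclear RNA of SOX9+NEUN- nuclei sorted from cortex of C57BL/6J mice on postnatal days 26 to 28, 19 libraries in 4 groups. Every mouse, controls included, carried floxed Smad4 (Smad4 fl/fl) and was hemizygous for Fmr1. The WT group (n = 4) was Fmr1 +/y without the Gfap-Cre73.12 transgene, and the Smad4 cKO group (n = 6) was Fmr1 +/y with it. The Fmr1 KO group (n = 5) was Fmr1 -/y without Cre, and the double mutant group (n = 4) was Fmr1 -/y with Cre. Cre was driven by Gfap sequences, while the Fmr1 -/y genotype is not conditional and holds for every cell of the animal. The labels do not say whether any libraries share a litter, so the p-values measure the spread between these libraries. Postnatal days 26, 27 and 28 gave 1, 2 and 1 libraries of WT and 3, 2 and 1 of Smad4 cKO. They gave 2, 3 and 0 libraries of Fmr1 KO and 2, 2 and 0 of the double mutant. Day 28 thus held only Fmr1 +/y libraries, and the main fits had no term for day. All mice were normally reared.

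FMRP binds many brain mRNAs, mostly along their coding sequence, and is best known for holding back their translation at synapses. Its loss causes fragile X syndrome, in which excess synthesis of synaptic proteins is a classic finding. Many of its ligands are unusually long and encode scaffolds of the synapse, cytoskeletal giants, mTOR and Ras regulators, giant ubiquitin ligases and chromatin proteins. Several are autism risk genes. FMRP acts on these mRNAs chiefly in the cytoplasm, whereas the RNA here came from nuclei, and astrocytes also make FMRP.

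The 34 genes were long by every measure that a transcript annotation gives. Their median gene length was 121842 bases, against 21799 bases over the 14677 tested genes with a position (GENCODE vM21, GRCm38), and 32 of 34 lay above that median. Dlgap1, at 852341 bases on chromosome 17, was the longest of them and Agap2, at 17886 bases on chromosome 10, the shortest. Their coding sequences had a median of 7392 bases, against 1368 bases over 12883 tested genes with a matched transcript. Length was part of how the list was described, so it is no finding. The matched transcripts had a median of 22 exons, against 9 over all genes, and a coding GC content of 54.7%, against 53.3%. The listed transcript of Ank2 had no match and is left out of these counts.

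Short RNA elements that FMRP is known to contact, written in DNA letters as TGGA, its variant AGGA, the element ACTG and its variant ACTT, were counted on the coding strand with overlaps allowed. The 33 matched coding sequences held a median of 24.2 elements per kilobase, against 24.9 over all genes, and 13 of 33 lay above the median of all genes. These letters are common: 99.96% of all coding sequences held at least 1 of them. A stretch of 60 coding bases with 6 or more elements was present in 26 of the 33 members and in 30.5% of all genes. Among coding sequences over 5000 bases, where a dense stretch has more room, it was present in 20 of 22 members and in 75.2% of 499 genes. This cut does not match lengths above it, and the members' coding sequences reached 15984 bases. The densest stretch of 60 bases within an exon is shown for 7 members on which the results below turn, namely the SHANK family, whose 3 members differed in their values, and 1 or more examples from other roles. Capitals mark the elements, and all are 5′ to 3′ on the mRNA strand of GRCm38.
Shank1 (chr7:44313208-44313267, + strand, exon 3 of 25): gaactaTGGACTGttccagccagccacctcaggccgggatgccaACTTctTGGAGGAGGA
Shank2 (chr7:144410828-144410887, + strand, exon 10 of 11): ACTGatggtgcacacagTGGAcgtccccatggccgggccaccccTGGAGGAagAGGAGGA
Shank3 (chr15:89532150-89532209, + strand, exon 15 of 22): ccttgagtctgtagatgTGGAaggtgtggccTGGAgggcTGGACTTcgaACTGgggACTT
Dlgap3 (chr4:127233940-127233999, + strand, exon 9 of 12): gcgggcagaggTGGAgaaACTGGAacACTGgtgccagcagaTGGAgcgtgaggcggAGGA
Map1b (chr13:99433696-99433755, - strand, exon 5 of 7): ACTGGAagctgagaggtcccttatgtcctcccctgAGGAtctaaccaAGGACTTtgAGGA
Mtor (chr4:148489496-148489555, + strand, exon 26 of 58): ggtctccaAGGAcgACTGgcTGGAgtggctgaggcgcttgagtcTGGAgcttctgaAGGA
Huwe1 (chrX:151907015-151907074, + strand, exon 53 of 83): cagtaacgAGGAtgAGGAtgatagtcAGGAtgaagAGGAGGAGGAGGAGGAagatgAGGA
The SHANK and Dlgap3 stretches each held 6 elements, as did that of Map1b, while that of Mtor held 5 and that of Huwe1 held 9, mostly in a run of AGGA repeats. The presence of these letters does not show that FMRP bound there.

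Before the members, the targeted genes were checked. Fmr1 was at 26.2 ± 4.29 scaled TPM in WT (SD, n = 4) and 23.8 ± 2.73 in Smad4 cKO (n = 6), but at 38.9 ± 1.94 in the libraries labelled Fmr1 KO (n = 5) and 37.1 ± 1.37 in those labelled double mutant (n = 4). The Fmr1 signal was thus higher, not lower, under the Fmr1 KO label, with no overlap between the 9 libraries with that label (35.5 to 41.7) and the 10 without it (20.6 to 31.6). The change averaged over both Smad4 genotypes was 0.59 ± 0.07 (log2, SE) with limma's adjusted p = 0.000529. A whole-gene TPM does not check this allele, and every direction below is that of the label. Smad4 was at 33.3 ± 2.62 scaled TPM in WT and 32.4 ± 2.24 in Smad4 cKO, and was 29.9 to 36.7 across all libraries, so the floxed part was not visible either. Summed over 14 astrocyte markers, including Slc1a2, Aqp4 and Sox9, the libraries held 7444 to 12917 scaled TPM, against 97.1 to 523 over 20 neuron markers, 246 to 3735 over 10 oligodendrocyte markers, 29.5 to 406 over 10 microglia markers and 68.5 to 528 over 8 endothelial markers. The ribosomal RNA entry Rn45s took a mean of 29.2% of the TPM in WT, 26.1% in Smad4 cKO, 19.7% in Fmr1 KO and 18.6% in double mutant libraries. Fewer cells of a type and less RNA per cell cannot be told apart in such bulk samples.

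All 34 transcripts were present in the nuclei. Levels are given as scaled TPM, a measure per length that is meant for comparison between genes. The sources used here do not say whether introns were counted, so the order of genes below is that of the deposited values only. Their median WT mean was 40.5, against 16.4 over all tested genes, and 26 of 34 lay above the median of all genes. In WT, 12 members were at 50 or more, 19 between 10 and 50, and 3 below 10. The order ran from Ank2, which encodes the membrane anchor ankyrin-B, at 299 ± 21.2 (SD, n = 4), down to Aff2, a transcription elongation factor of the FMR2 family, at 1.20 ± 0.523. Ank2, the actin-microtubule crosslinker Macf1 (181 ± 25.9), Nisch (127 ± 4.90) and Apc (109 ± 2.95) led the order, and the WT libraries did not overlap from Ank2 to Macf1, from Macf1 to Nisch or from Nisch to Apc. From there on, neighbours overlapped in WT at every step but that from Dlg4 to Huwe1, which makes 29 of 33 neighbouring pairs that overlapped.

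**Figure D1:**
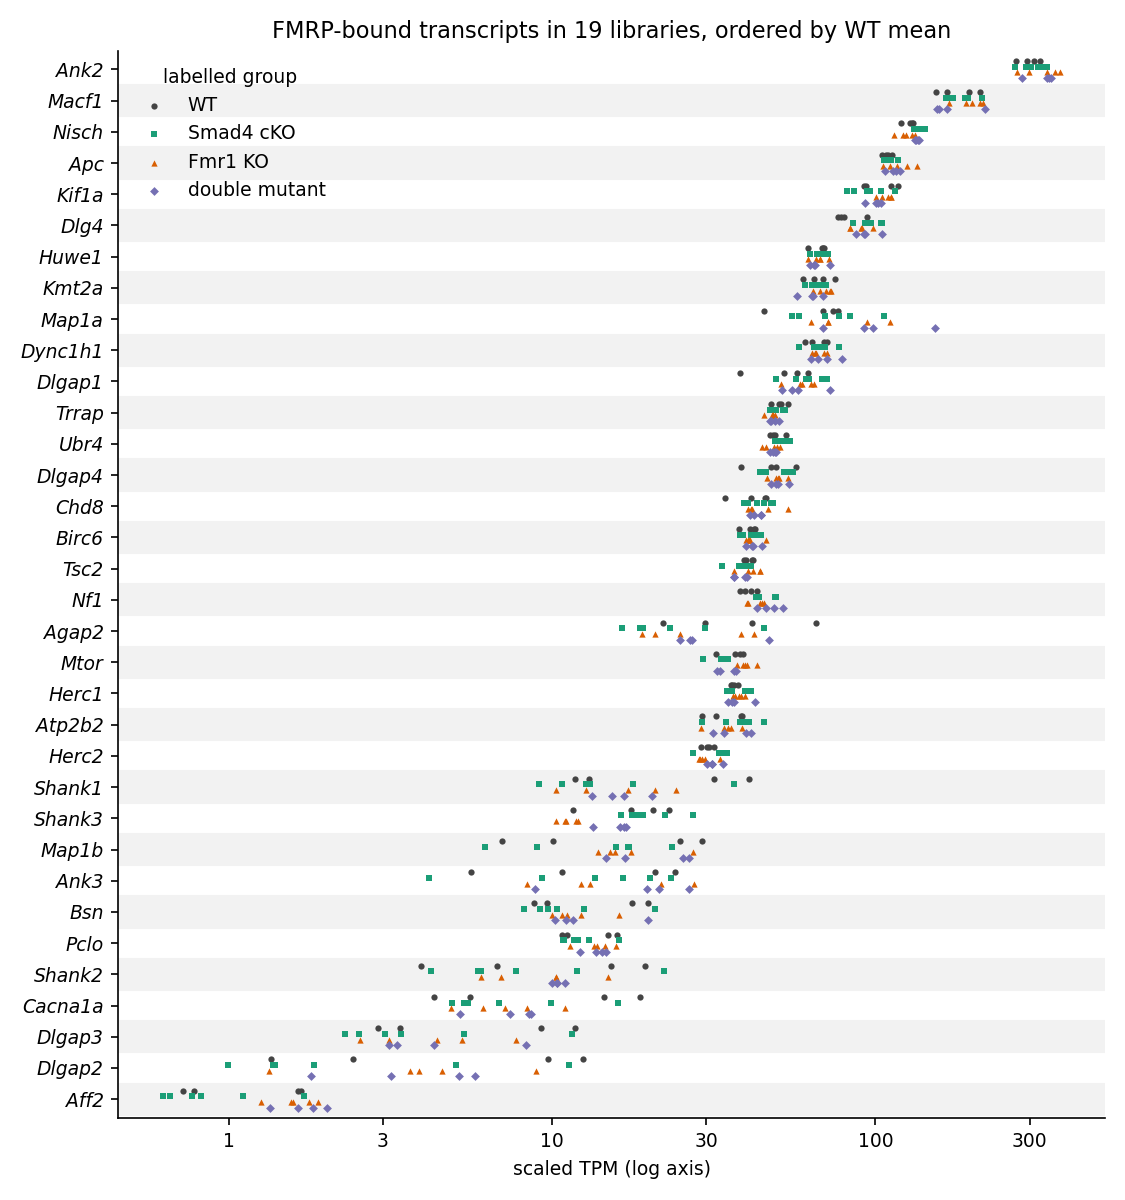
Level of each of the 34 transcripts in each of the 19 libraries, in scaled TPM on a log axis, ordered by WT mean. Points are libraries, coloured by labelled group. Ank2 to Huwe1 at the top stay within a narrow band across groups, while Agap2, Shank1, Map1b, Ank3, Shank2, Cacna1a, Dlgap3 and Dlgap2 spread over 3.98-fold to 12.5-fold across the libraries.

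The roles differed in level and in how steady they were. The 5 giant ubiquitin ligases lay close together in WT, with Huwe1 at 67.1 ± 3.51, Ubr4 at 49.3 ± 2.45, Birc6 at 40.9 ± 2.08, Herc1 at 36.5 ± 0.742 and Herc2 at 30.3 ± 1.18 scaled TPM. Across all 19 libraries the highest value of each was between 1.17 and 1.27 times its lowest. Trrap, the scaffold of histone acetyltransferase complexes, was as steady, with 45.2 to 53.5 across libraries, while the chromatin genes Kmt2a (57.4 to 74.9) and Chd8 (34.3 to 53.5) varied more, by 1.31-fold and 1.56-fold. The growth regulators Mtor (29.3 to 42.9), Tsc2 (33.6 to 44.1), which restrains mTOR complex 1, and Nf1 (38.0 to 52.0), which switches off Ras, lay in the same range.

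Synaptic scaffolds covered a wider range. Dlg4, which encodes PSD-95, was at 82.3 ± 8.10 scaled TPM in WT, and Dlgap1 and Dlgap4, which link PSD-95 to SHANK proteins, at 52.3 ± 10.2 and 48.0 ± 7.63. Their relatives Dlgap3 (6.83 ± 4.37) and Dlgap2 (6.49 ± 5.45) were far lower and had large SDs for their means. The active zone scaffolds Bsn (14.0 ± 5.54) and Pclo (13.2 ± 2.63) were near each other, as were Shank3 (18.2 ± 4.89) and Shank1 (24.3 ± 14.2), with Shank2 at 11.4 ± 7.23. Of the cytoskeletal genes, the kinesin Kif1a (104 ± 12.7) and the dynein heavy chain Dync1h1 (65.9 ± 4.79) were high, Map1a was at 66.2 ± 14.4, and Map1b and the axon initial segment anchor Ank3 were at 17.8 ± 10.9 and 15.3 ± 8.57. The median SD within groups, over members, was 0.141 on the log2 scale, against 0.217 over all tested genes.

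The first question was whether these transcripts differ under the Fmr1 KO label. In Fmr1 KO against WT, 0 of 34 passed limma's adjusted p of 0.05, where 0% of all 15049 tested genes passed and 1239 had an unadjusted p under 0.05. In double mutant against Smad4 cKO, 0 of 34 passed, where 0.0199% of all genes (3 genes) did. Averaged over both Smad4 genotypes, 1 of 34 passed, Shank3, where 1.53% of all genes did (230 genes, 45 higher and 185 lower). On the TPM as deposited, without rescaling of libraries, that average called 607 genes, 420 higher and 187 lower. The members' median log2 change in this average was 0.03, against 0.01 over all genes, with 23 of 34 above 0, against 53.0% of all genes. In the separate comparisons the members' medians were 0.04 (all genes -0.00015) with Smad4 intact and 0.03 (all genes 0.01) with the Smad4 cKO label, and the individual members lay between -0.61 and 0.54.

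Shank3, which encodes a postsynaptic master scaffold and lies at chr15:89499623-89560261, was the member that passed. Its scaled TPM was 11.6, 20.5, 17.5 and 23.0 in the WT libraries and 17.6, 18.3, 22.3, 16.4, 19.1 and 27.3 in Smad4 cKO. It was 12.0, 11.0, 10.3, 11.8 and 11.0 in the libraries labelled Fmr1 KO and 16.2, 13.4, 16.7 and 17.0 in double mutants. The 5 Fmr1 KO libraries lay together at the bottom, with 1 WT library among them, and the double mutants lay above all of them. The Fmr1 KO range overlapped that of WT, and the double mutant range overlapped that of Smad4 cKO. Averaged over Smad4 genotypes, Shank3 was lower by 27.5% under the Fmr1 KO label, a log2 change of -0.46 ± 0.11 (SE) with limma's adjusted p = 0.0437. An exact two-sided permutation of the libraries within each Smad4 genotype gave p = 0.000529 for this single value, unadjusted. The matching permutation for the Smad4 cKO label was run within each Fmr1 genotype. Among the members, under either label, only Nisch gave a smaller permutation p (0.00034, Smad4 cKO label), and limma did not call it. Shank3 was picked by its limma call on the same libraries, so its permutation p adds no independent evidence for the Shank3 change. The change was -0.61 ± 0.16 with Smad4 intact (adjusted p = 0.191, limma) and -0.32 ± 0.15 with the Smad4 cKO label (adjusted p = 0.519), and the difference between them, 0.29 ± 0.22, did not pass (adjusted p = 1.00). Within postnatal day 26 the Fmr1 KO label differed by -0.41 (4 against 4 libraries) and within day 27 by -0.63 (5 against 4).

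The call on Shank3 was close to the threshold. It was lower in all 32 alternative fits, with log2 changes of -0.56 to -0.38, but passed in 8 of them, and leaving out 1 library ended the call in 16 of 19 cases. It passed without WT replicate 1 (adjusted p = 0.0206), WT replicate 3 (0.0496) or Smad4 cKO replicate 4 (0.0482), and not without any other single library, where the count of members called was 0. Endothelial markers moved with the same label. All 8 had negative averages, with a median log2 change of -1.04, and 5 passed, including Flt1 (-1.33 ± 0.24, adjusted p = 0.0171, limma). Their summed level was 114 to 528 scaled TPM in WT and 183 to 383 in Smad4 cKO, against 68.5 to 217 in Fmr1 KO and 90.7 to 174 in double mutants, and none of the 8 was at 0 in any library. Within groups, Shank3 had a slope of -0.02 ± 0.13 (SE) on the endothelial marker score (unadjusted p = 0.898, limma), which was -0.17 without the 2 libraries farthest from the median score. The endothelial score and the Fmr1 KO label moved together, and the part of endothelial RNA in the Shank3 change was not tested. With that score in the model the Shank3 change was -0.48 with an adjusted p of 0.494, and 0 of all genes passed.

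**Figure D2:**
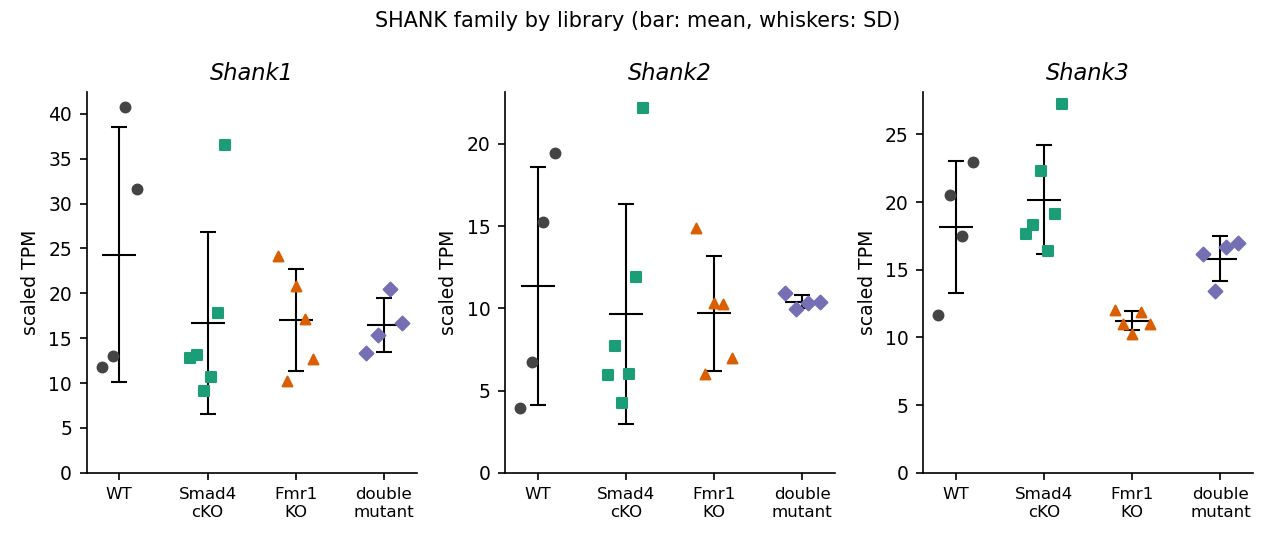
Scaled TPM of Shank1, Shank2 and Shank3 in every library by labelled group, on linear axes from 0, with the group mean as a bar and the SD as whiskers. In Shank3 the 5 libraries labelled Fmr1 KO sit between 10.3 and 12.0, below all but 1 of the other libraries' values, while Shank1 and Shank2 spread widely within WT and Smad4 cKO.

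The relatives of Shank3 gave no such call. Shank1, the SHANK of mature postsynaptic densities, was 11.8, 13.0, 40.7 and 31.7 scaled TPM in the 4 WT libraries and 10.3 to 24.1 in Fmr1 KO, so that the groups overlapped. Its average log2 change under the Fmr1 KO label was -0.12, with a 95% interval of -0.69 to 0.44. Shank2 was 3.94 to 19.5 in WT and 6.02 to 14.9 in Fmr1 KO, with an average log2 change of 0.12 (interval -0.49 to 0.73). These intervals contain the value seen for Shank3, and neither difference between family members was tested.

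With Shank3, 3 of 34 members (8.82%) had an unadjusted p under 0.05 in the average over Smad4 genotypes, where 13.2% of all genes did, and Aff2 and Map1a did not pass after adjustment. Aff2 lies 642.3 kb beyond Fmr1 on the X chromosome. It was 0.722 to 1.67 scaled TPM in WT and 0.628 to 1.71 in Smad4 cKO, against 1.26 to 1.89 in Fmr1 KO and 1.34 to 2.02 in double mutants, all close to the filter. Its log2 change was 0.38 ± 0.13 (limma, adjusted p = 0.177), and it was 0.59 within day 26 but 0.10 within day 27. Map1a, a microtubule-associated protein of mature neurons, was at 66.2 ± 14.4 in WT, 75.1 ± 18.8 in Smad4 cKO, 82.1 ± 19.7 in Fmr1 KO and 103 ± 35.6 in double mutants, with 153 in a single double mutant library. Its log2 change was 0.37 ± 0.16 (limma, adjusted p = 0.342).

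Map1b, the long-studied FMRP target of the cytoskeleton, was 7.01 to 29.1 scaled TPM in WT and 13.9 to 27.3 in Fmr1 KO, with an average log2 change of 0.36 ± 0.27 (adjusted p = 0.639, limma). Of all genes, 53.0% had an average above 0. By role, 7 of 10 synaptic scaffolds and 8 of 8 cytoskeletal and motor genes did, as did 3 of 3 mTOR and Ras genes. The other counts were 0 of 4 channel, pump and signalling genes, 2 of 5 ubiquitin ligases and 3 of 4 chromatin and transcription genes. Signs of small values can turn on the scaling: the median over all genes was 0.09 on TPM as deposited, against 0.01 here. Of the 34 members' averages, 29 were smaller than 0.2 in size on the log2 scale. For 23 members the 95% interval lay within 0.5 of no change. The precision was not even. The interval of Trrap was -0.12 to 0.01, while that of Dlgap2 was -0.80 to 0.92, so that changes of the variable synaptic genes within such an interval were not detectable here.

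**Figure D3:**
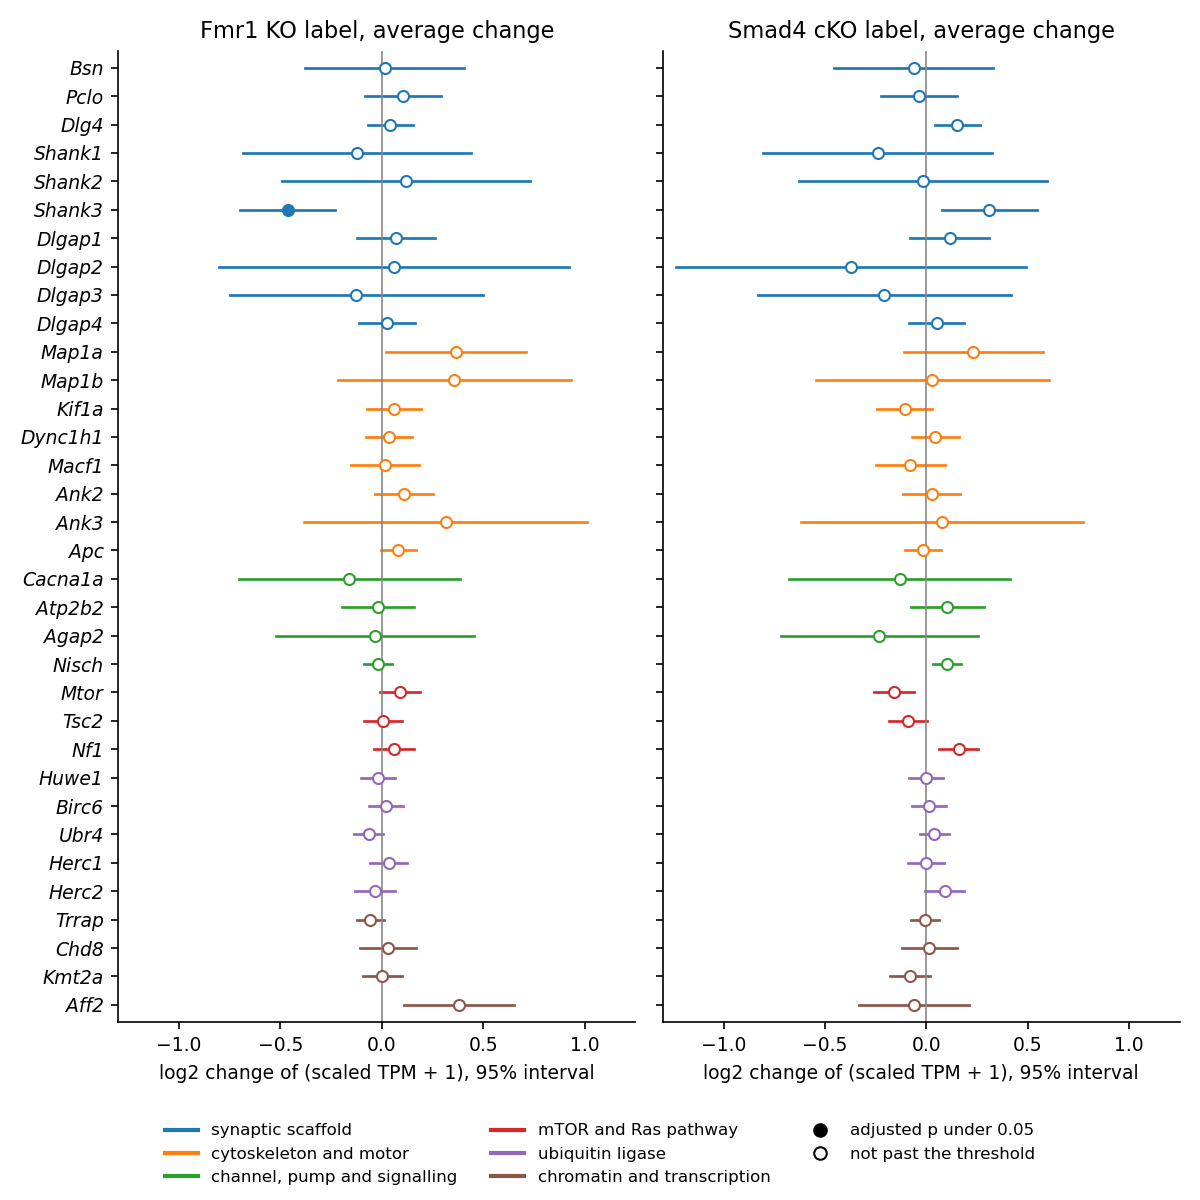
Log2 change of each transcript under the Fmr1 KO label (left) and the Smad4 cKO label (right), each averaged over the other genotype, with 95% intervals from limma. Colours are roles and filled points passed an adjusted p of 0.05. Only Shank3 on the left is filled, and intervals are narrow for ubiquitin ligases and chromatin genes and wide for Shank1, Shank2, Dlgap2, Dlgap3, Map1b, Ank3, Cacna1a and Agap2.

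The same questions were asked of the Smad4 cKO label, under which astrocytes with Cre should lack the shared mediator of BMP and TGF-beta signals. In Smad4 cKO against WT, 0 of 34 members passed, where 0.784% of all genes did, and in double mutant against Fmr1 KO 0 of 34 passed, where 0.405% did. Averaged over Fmr1 genotypes, 0 of 34 passed, where 1.81% did (272 genes, 156 higher and 116 lower). The members' median log2 change in this average was -0.001, against -0.004 over all genes. In it, 5 of 34 members (14.7%) had an unadjusted p under 0.05 in limma, where 11.0% of all genes did, a share near the background, namely Nf1, Mtor, Nisch, Dlg4 and Shank3.

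Nf1 was 39.6, 38.0, 43.0 and 41.4 scaled TPM in WT and 42.8 to 49.1 in Smad4 cKO. It was 39.9 to 45.2 in Fmr1 KO and 43.0 to 52.0 in double mutants, so that Cre libraries lay higher with some overlap. Its log2 change was 0.16 ± 0.05 (limma, adjusted p = 0.0999). Mtor, the kinase at the centre of growth signalling, was 36.8, 39.1, 32.2 and 38.0 in WT against 29.3 to 35.0 in Smad4 cKO. It was 37.2 to 42.9 in Fmr1 KO against 32.4 to 37.0 in double mutants, where the ranges did not overlap. Its log2 change was -0.16 ± 0.05 (limma, adjusted p = 0.102), and -0.18 within day 26 and -0.16 within day 27. Without WT replicate 3, its lowest WT library, Mtor passed, at -0.19 with an adjusted p of 0.0372.

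Nisch, which encodes the integrin-binding protein nischarin, had a log2 change of 0.10 ± 0.03 (limma, adjusted p = 0.148), with 127 ± 4.90 scaled TPM in WT and 136 ± 3.88 in Smad4 cKO. Dlg4 was 82.3 ± 8.10 in WT and 96.5 ± 7.30 in Smad4 cKO, with an average change of 0.15 ± 0.05 (adjusted p = 0.203). Shank3 had an average of 0.31 ± 0.11 under the Smad4 cKO label (adjusted p = 0.226), 0.16 ± 0.15 with Fmr1 intact and 0.46 ± 0.16 under the Fmr1 KO label. The interaction of both labels, the Smad4 cKO change under the Fmr1 KO label minus that without it, called 0 of 34 members, where 0% of all genes passed and 250 had an unadjusted p under 0.05. Members ranged from -0.25 to 0.73 in it, and 0 of them had an unadjusted p under 0.05.

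Genes of the same pathways, from lists related to the members, were counted in the same averages. Of all genes, 1.53% passed under the Fmr1 KO label and 1.81% under the Smad4 cKO label. Of 84 tested transcripts on a longer list of other FMRP-bound mRNAs, 1 passed in the average over the Fmr1 KO label. It was Plxnd1, a semaphorin receptor, at -0.60 ± 0.11 (limma, adjusted p = 0.0179), and the list's median was 0.03. With the endothelial score in the model 0 of all genes passed, so the lack of a call on Plxnd1 there is not particular to it. Endothelial markers were lower under the same label, and the part of endothelial RNA in the Plxnd1 change was not tested. Under the Smad4 cKO label 2 of the 84 passed, Nav2 at -0.39 ± 0.09 (adjusted p = 0.0289) and the semaphorin receptor Plxna4 at 0.52 ± 0.13 (adjusted p just under the threshold). The median of that list was -0.02.

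Of 31 mTOR pathway genes, 0 passed under the Fmr1 KO label, where Eif4ebp1, the translational repressor that mTOR switches off, had -0.43 ± 0.11 (limma, adjusted p = 0.0691). Under the Smad4 cKO label 1 of 31 passed, Deptor, an inhibitor bound to mTOR, at -0.57 ± 0.12 (adjusted p = 0.0130). The shares over all genes, for these lists too, were 1.53% under the Fmr1 KO label and 1.81% under the Smad4 cKO label. Tsc1, the partner of Tsc2, had -0.14 ± 0.05 under the Fmr1 KO label (adjusted p = 0.206). Among 35 tested paralogs of members, 0 passed under the Fmr1 KO label, and 2 under the Smad4 cKO label, namely Aff3, a relative of Aff2, at 0.88 ± 0.14 (adjusted p = 0.00193) and Chd9, a relative of Chd8, at 0.33 ± 0.06 (adjusted p = 0.00256). Of 27 postsynaptic and active zone partners of the scaffolds, 0 passed under either label. The FMRP relatives Fxr1 and Fxr2 had averages of 0.09 ± 0.05 and -0.05 ± 0.04 under the Fmr1 KO label (adjusted p = 0.523 and 0.680).

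The wide spread of some synaptic members within groups moved with the level of neuron markers. A neuron marker score, the mean log2 value of 20 markers centred over libraries, ran from -0.87 to 1.14, and each gene's slope on it was fitted within groups. In this fit 10 of 34 members rose with the score, where 7.42% of all genes did, and 0 fell, where 1.41% of all genes did. These 10 were 6 of 10 synaptic scaffolds, 1 of 8 cytoskeletal and motor genes (Map1b), 2 of 4 channel, pump and signalling genes, 1 of 4 chromatin and transcription genes (Aff2), 0 of 3 mTOR and Ras genes and 0 of 5 ubiquitin ligases. Without the 2 libraries farthest from the median score, 12 members rose, the same 10 among them. The share of all genes was not counted in that fit, so the 12 have no background to be read against. The score and the members come from the same libraries, and the part of neuronal nuclei or of free neuronal RNA in these slopes was not tested.

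Dlgap2 had the steepest of the 34 slopes, 1.43 ± 0.18 log2 units per unit of score (SE, limma adjusted p = 3.95e-05). Its scaled TPM ran from 0.997 in a Smad4 cKO library with a score of -0.87 to 12.5 in a WT library with a score of 0.82. Dlgap3 followed, at 1.10 ± 0.09 (adjusted p = 1.11e-06), and was 2.28 to 3.42 in the 4 Smad4 cKO libraries with scores below -0.4 but 11.5 in the Smad4 cKO library with a score of 0.71. Shank1 (0.91 ± 0.13), Shank2 (0.87 ± 0.18), the calcium channel pore Cacna1a (0.87 ± 0.13), the PI3-kinase enhancer Agap2 (0.78 ± 0.12), Map1b (0.71 ± 0.20) and Bsn (0.69 ± 0.06) rose too. Pclo (0.25 ± 0.06) and Aff2 (0.32 ± 0.09) rose less steeply.

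Other members of the same families did not pass on the score. Dlg4 had a slope of 0.01 ± 0.05, Dlgap1 of 0.05 ± 0.09 and Dlgap4 of 0.08 ± 0.06, while Shank3 had 0.20 ± 0.10 (unadjusted p = 0.0487, adjusted p = 0.234, limma). Mtor (-0.03 ± 0.04), Tsc2 (0.02 ± 0.04) and Nf1 (-0.02 ± 0.04) had slopes within 1 SE of 0. The 5 ubiquitin ligases lay between -0.09 and 0.01, with Huwe1 the lowest at -0.09 ± 0.03 (adjusted p = 0.0671, limma). Ank3 was as steep as members that passed, at 0.78 ± 0.26, but did not pass (adjusted p = 0.0752), and it passed without the 2 libraries farthest from the median score (adjusted p = 0.0468). Ank2, its relative, was at -0.11 ± 0.06. The gene families thus divided: Dlgap2 and Dlgap3 passed and Dlgap1 and Dlgap4 did not, and Shank1 and Shank2 passed and Shank3 did not, though the differences between family members were not tested. On the endothelial score 0 of 34 members rose, where 1.26% of all genes did, and 1 fell, where 0.339% did. That was Map1b at -0.92 ± 0.21 (adjusted p = 0.0309), and 0 passed without the 2 libraries farthest from the median of that score. The share of all genes was not counted without those libraries.

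**Figure D4:**
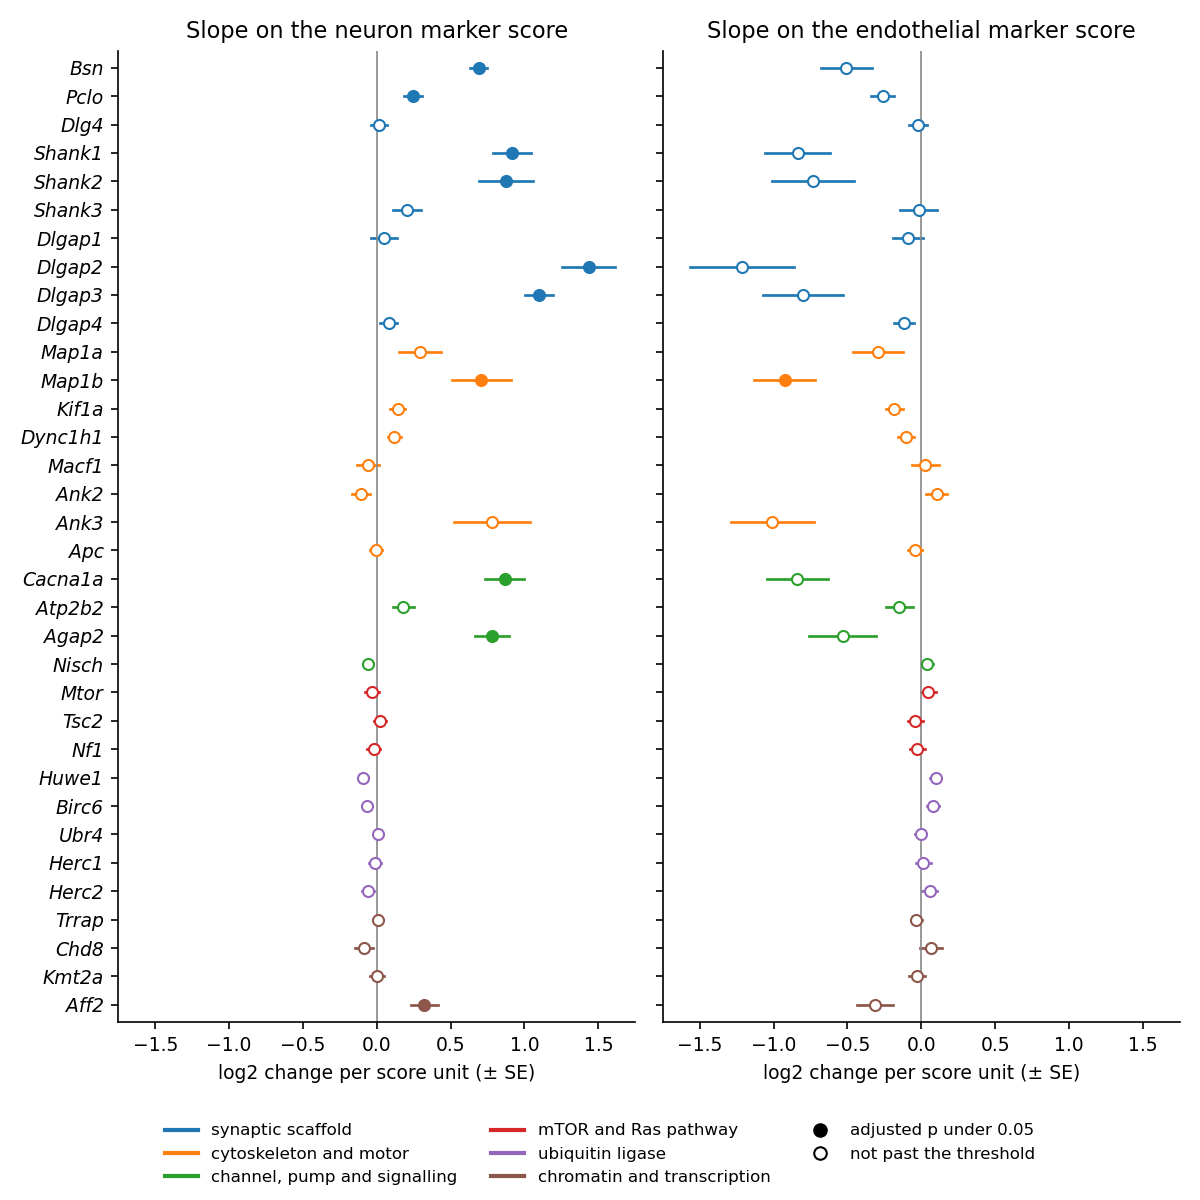
Slope of each transcript, in log2 units per unit of score with its SE, on the neuron marker score (left) and the endothelial marker score (right), fitted within groups by limma. Filled points passed an adjusted p of 0.05. On the left 10 points are filled, 6 of them synaptic scaffolds, and the ubiquitin ligases lie between -0.09 and 0.01, while on the right Map1b alone is filled.

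The neuron score was not independent of age. It was -0.87 to -0.03 in the 8 libraries of postnatal day 26, 0.04 to 1.14 in the 9 of day 27, and -0.86 and -0.57 in the 2 of day 28, so that days 26 and 27 did not overlap. Fitted within a single day, 0 of 34 members passed on day 26 and 0 on day 27, where 0 of all genes did, and 19 of 34 slopes on day 26 and 24 of 34 on day 27 were above 0, against 50.6% and 50.5% of all genes. With day as a factor, 3 of 34 members rose, where 2.33% of all genes did, namely Agap2 at 1.20 ± 0.16, Bsn at 0.71 ± 0.11 and Dlgap3 at 1.05 ± 0.18 (adjusted p = 0.00150, 0.00355 and 0.00593, limma). The other 7 had positive slopes in that fit but did not pass, among them Shank1 at 0.92 ± 0.24 (adjusted p = 0.0601) and Dlgap2 at 0.99 ± 0.30 (adjusted p = 0.106).

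**Figure D5:**
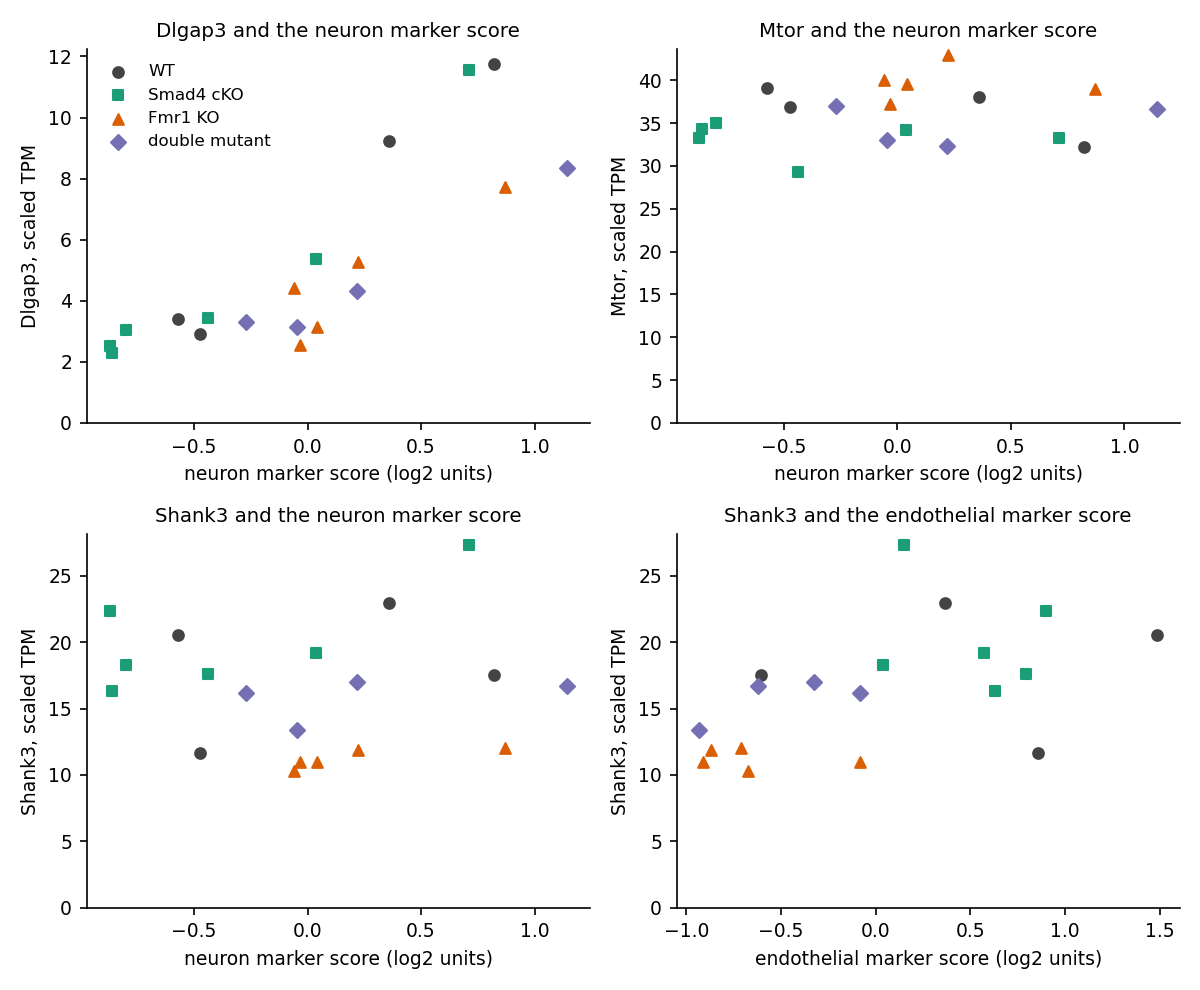
Scaled TPM of Dlgap3, Mtor and Shank3 against the neuron marker score, and of Shank3 against the endothelial marker score, with 1 point per library. Dlgap3 rises with the neuron score in the fit within groups and lies between 2.28 and 11.8 over all libraries. Dlgap3 is 2.55 to 7.74 in Fmr1 KO and 3.13 to 8.33 in double mutants, and Mtor stays between 29.3 and 42.9. The 5 Fmr1 KO libraries hold Shank3 at 10.3 to 12.0 across neuron scores of -0.06 to 0.87, and the 9 libraries with the Fmr1 KO label have endothelial scores of -0.93 to -0.08.

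The Fmr1 comparisons were also fitted with the neuron score as a term, but the score moved with the label and with the postnatal day, and the part of neuron content in them was not tested. With the score, Shank3 was at -0.55 (adjusted p = 0.0370, limma), and Dlgap3, which had -0.13 ± 0.30 without it, was at -0.57 (adjusted p = 0.0350). Thus 2 of 34 members passed, where 127 of all 15049 tested genes did. Of the 20 neuron markers, 18 had an average above 0 under the Fmr1 KO label, with a median of 0.35, and 1 passed, Nefm. Oligodendrocyte markers had a median of 0.77 with 10 of 10 above 0, microglia markers had a median of -0.37 with 0 of 10 above 0, and 0 of either list passed. Mural markers had a median of -0.65 with 1 of 6 above 0, and 1 passed, Abcc9, at -0.69 ± 0.16 (adjusted p = 0.0348, limma).

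Some members share genome space with other genes, and the sources used here do not say whether reads were counted by strand. Of the 34, 7 overlap a protein-coding gene on the opposite strand. Exon bases are shared by Tsc2 with Pkd1 (572 bases), by Shank1 with 1700008O03Rik (339 bases) and by Herc1 with Fbxl22 (317 bases), so these values may hold reads of the partner. Map1a, Nisch, Mtor and Nf1 overlap Ppip5k1, Tnnc1, Angptl7 and, for Nf1, Omg, Evi2, Evi2a and Evi2b, with 0 shared exon bases, and Ubr4 overlaps Emc1 on the same strand, which matters for nuclear RNA if introns were counted. Neither Shank3 nor the Dlgap genes overlap a protein-coding gene. With non-coding genes and pseudogenes included, 30 of the 34 overlap another gene. Shank3 is among them, with the non-coding Gm15609 on the opposite strand, as are Dlgap1, Dlgap2 and Dlgap4. By gene length, the 11 members over 200 kb had a median log2 change of 0.07 under the Fmr1 KO label and -0.02 under the Smad4 cKO label, against 0.02 and 0.001 over the 854 tested genes of that length.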

How the data were processed

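Nuclear RNA of sorted cortical nuclei was sequenced after ribosomal RNA depletion, and the authors deposited 1 table of TPM for 24537 genes in 19 libraries. Per the submitters' processing notes, bcl2fastq 2.20, MultiQC 1.0, STAR 2.5.3a and HOMER 4.10.4 were used with mm10. The sources used here do not say whether introns were counted or strand was used, and read depth is unknown, since TPM keeps none. The deposited TPM summed to 665382 to 716222 per library.

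Each library was divided by its median-of-ratios factor (0.918 to 1.07), and log2(scaled TPM + 1) was fitted with limma 3.58.1 (R 4.3.3, variance trend) by group over all 19 libraries, for 15049 genes, those whose TPM averaged 1 or more. A fold change on this scale understates that of low genes. Adjusted p-values are Benjamini-Hochberg over all tested genes within a comparison, two-sided, with a threshold of 0.05. The comparisons share libraries: the WT, Smad4 cKO, Fmr1 KO and double mutant groups each enter several. Slopes were fitted with group and a marker score. Single values were tested by exact permutation within genotypes. The procedure was tested on simulated data in which genes varied independently of each other and postnatal day had no effect. That test therefore does not vouch for the calls made here. Gene positions and transcript sequences are those of GENCODE vM21 (GRCm38), found by symbol (34 of 34 members) and by listed RefSeq accession (33 of 34). Python 3.11.15 and matplotlib 3.10.9 were also used.

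The members and lists were chosen with earlier results of these data known. All members could be named, Fmr1 and Smad4 were always named, and of each other list up to 3 genes with the smallest p per label, plus any that passed. The slopes on marker scores and the endothelial score as a covariate were added after seeing the data. The other alternatives were unscaled TPM, a quantile normalization, smaller pseudocounts, no filter, a filter at 5 TPM, a replicate block, postnatal day as a factor, compared groups alone, library weights, the neuron score, and leaving out libraries.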

Additional observations from a re-analysis of the deposited data

Results flagged for a closer look

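Of 136 tests of a member in a group, 12 found a library far from the others of its group by Dixon's criterion, and chance flags about 1 in 20. Smad4 cKO replicate 6 was the highest of its 6 libraries in Bsn (20.8 scaled TPM, the next at 12.6), Shank1 (36.5, the next at 17.8) and Dlgap3 (11.5, the next at 5.36), and its neuron marker score of 0.71 was also the highest of that group. Double mutant replicate 3 was the highest of 4 in Bsn (19.8, the next at 11.6) and Agap2 (46.8, the next at 27.2), with a neuron score of 1.14. Fmr1 KO replicate 3 was the highest of 5 in Map1b (27.3, the next at 17.5).

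Among the steadier members, Fmr1 KO replicate 2 was the highest of 5 in Birc6 (45.7, the next at 40.8) and Herc2 (33.1, the next at 29.6). The lowest libraries set apart were Smad4 cKO replicate 1 in Mtor (29.3, the next at 33.2), WT replicate 3 in Huwe1 (61.9, the next at 68.2), Smad4 cKO replicate 5 in Herc2 (27.3, the next at 32.8) and Fmr1 KO replicate 5 in Trrap (45.2, the next at 48.0).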

How the results depend on the processing

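The number of members called in the average over the Fmr1 KO label was 1 (Shank3) and became 0 with quantile normalization, no filter, a mean TPM of at least 5, the replicate block, postnatal day as a factor, the endothelial score, both scores, and when each group lost its library with the most neuron signal. It was 2 with library weights (Shank3 and Aff2) and with the neuron score (Shank3 and Dlgap3), and 0 to 1 when single libraries were left out. All genes called in that average, 230 of 15049, became 607 on TPM as deposited, 70 with quantile normalization, 110 at a mean TPM of at least 5, 21 with day as a factor, 488 with library weights, 127 with the neuron score, 0 with the endothelial score and 0 with both, and 44 to 393 with single libraries left out. It moved by over 1.5 times without WT replicate 2 (100), 3 (393) or 4 (129), Smad4 cKO replicate 3 (121) or 4 (149), Fmr1 KO replicate 4 (86) or 5 (128), or double mutant replicate 2 (44), 3 (83) or 4 (140). In double mutant against Smad4 cKO, 3 genes became 0 with compared groups alone, without the libraries of highest neuron score, with the endothelial score and with both, and 0 to 4 with single libraries left out. In Fmr1 KO against WT, 0 genes became 84 without the libraries of highest neuron score and 0 to 164 with single libraries left out, 164 being without WT replicate 3. In Smad4 cKO against WT, 118 became 62 with compared groups alone and 64 without the libraries of highest neuron score. In double mutant against Fmr1 KO, 61 became 21 and 24 under those, and 27 to 62 with single libraries left out, with 27 to 38 where the library left out was a double mutant or, in Fmr1 KO, any but replicate 2. Members called in the average over the Smad4 cKO label were 0, and 0 to 1 with single libraries left out. Members rising with the neuron score were 10, became 3 with day as a factor, and 6 to 12 with single libraries left out, 6 being without Smad4 cKO replicate 6. For the fits with single libraries left out, the share of all genes rising was not counted. The causes were not tested. The members' 7 median changes moved by less than 0.181, the within-group SD of their mean log2 level, in every alternative run, but they lie near 0 and 6 of 7 crossed 0 in at least 1 alternative. The median under the Fmr1 KO label ran from -0.05 to 0.11 and that under the Smad4 cKO label from -0.02 to 0.02. The 8 changes of Shank3 (both labels), Aff2, Map1a, Mtor, Nf1, Nisch and Dlg4 kept their sign.

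Replicate numbers showed no pairing in these values. Same-numbered libraries of different groups had a median correlation of deviations of -0.00175 over 25 pairs (-0.27 to 0.20). Differently numbered ones had -0.0127 over 109 pairs (-0.41 to 0.42). These medians cannot exclude shared litters or batches, which the labels do not give. With the replicate block, 0 members and 2 genes were called in the average over the Fmr1 KO label, 0 genes in double mutant against Smad4 cKO, 63 in Smad4 cKO against WT and 21 in double mutant against Fmr1 KO. In that fit 6 members rose with the neuron score, and the share of all genes was not counted. Read depth is unknown, so the error of low genes such as Aff2 rests on the spread of libraries alone.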
